A study of Ovis aries with 30 samples.

Results

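The parathyroid and C cell genes described here are the 8 genes PTH, GCM2, CASR, CHGA, CHGB, SCG2, RET and CALCA, taken by name from a count table of 28524 genes, and all 8 were found. They were followed in the thyroid tissue of 15 newborn Romney lambs (Ovis aries), with perirenal brown adipose tissue (BAT) of the same animals as background. Of these, 6 spent 2 days indoors in the cold, at 4 °C (Cold), and 6 spent the same 2 days in a room held at 20–22 °C (AT, for ambient temperature). The remaining 3 served as controls and were sampled at the start, about 24 h after birth. All were twin lambs of mixed sex with no other treatment, 1 lamb was taken per dam, and the groups were allocated at random. Cold and AT lambs were of one age and 2 days older than the controls, so age and days indoors cannot be told apart in a comparison with controls. Lambs carry a number within their group (Cold 1 to Cold 6, AT 1 to AT 6, Control 1 to Control 3). The study left 1 control out for outlier counts, taken here to be Control 2 from its counts, as no label names it. These numbers are not those of the study, whose own Control 1 and Control 2 are the 2 controls it kept. Fold changes and tests came from 14 thyroid libraries with Control 1 and Control 3 as numbered here, while the levels of all 15 libraries are given.

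Endocrine cells of 3 types, each with its own hormone, lie in or beside the thyroid gland. Follicular cells make thyroid hormone on the protein thyroglobulin (TG). C cells lie between the follicles, make calcitonin, and arise from cells that reach the gland with the ultimobranchial body. The parathyroid glands are separate organs that lie on, in or close to the thyroid, and their chief cells secrete parathyroid hormone when blood calcium falls. C cells and chief cells both store their hormones in secretory granules and both sense calcium with the same receptor, so several of the 8 genes belong to both cell types. In bulk tissue, fewer cells of a type and less RNA per cell cannot be told apart.

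In the count table, which uses Oar_rambouillet_v1.0, PTH spans chr15:42219097-42227804 and CALCA chr15:40409294-40412322, and GCM2 lies at chr20:48844576-48850976. CASR spans chr1:204781149-204811506, CHGA chr18:57923235-57936369 and CHGB chr13:49973182-49990671. SCG2 lies at chr2:240774608-240780278 and RET at chr25:13227049-13282709. Counts were summed over the exons of each gene, and chromosome numbers were taken by shared gene names from the later ARS-UI_Ramb_v3.0 annotation. Of the 8 genes, SCG2 and CALCA are on the minus strand. CALCA gives both calcitonin and the neuropeptide CGRP by splicing, and counts per gene do not separate the products.

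Libraries held 25062784 to 30124871 counts in thyroid and 31556500 to 37025998 in BAT. Counts were divided by a size factor from the reference genes ACTB, RPL19 and HUWE1 and are called normalized counts. TG was at 1172400 to 5151800 normalized counts in the 15 thyroid libraries and at 9.17 to 1092.1 in BAT, each within its own tissue's scaling. Control 1 and AT 3 stood apart on the first principal component of the thyroid libraries, which held 42.7% of the variance, and had 122744 and 993306 counts of the skeletal muscle actin ACTA1 against 7 to 1660 in the others. AT 2 and AT 3 held 197 and 100 counts of the thymocyte enzyme DNTT, chosen after its values were seen.

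PTH, the parathyroid hormone gene, had reads in 8 of 15 thyroid libraries and in 0 of 15 BAT libraries. In the Cold lambs the counts were 0, 13, 1, 128, 31 and 0 in Cold 1 to Cold 6. In the AT lambs they were 0, 2, 0, 0, 0 and 7 in AT 1 to AT 6. The controls held 37, 4571 and 0 counts in Control 1 to Control 3. Control 2 was thus far above all others at 7011.5 normalized counts, 57.8 times the next library, Cold 4. The groups overlapped, because each of them held at least 1 library without a read. A count of 0 allows up to 3 counts, or 0.0996 to 0.120 CPM in a thyroid library, for counting error only.

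GCM2, the transcription factor needed to form parathyroid glands, followed PTH at a lower level. Its counts were 0, 3, 0, 14, 2 and 0 in Cold 1 to Cold 6. Among the AT lambs only AT 6 had a read, with 1 count, and among the controls only Control 2, with 440 counts. All 5 libraries with GCM2 reads also held at least 7 PTH reads. GCM2 made up 8.78% of the summed PTH and GCM2 counts in Control 2, with an exact 95% binomial interval of 8.01 to 9.60%, and 9.86% in Cold 4, with an interval of 5.50 to 15.99%. Both genes therefore stood in one ratio, within counting error, in the 2 libraries with most reads of them. Control 1 held 37 PTH reads and no GCM2 read, which allows a share of up to 9.49%. The level of GCM2 was 674.92 normalized counts in Control 2, 50.9 times that of Cold 4.

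Of the 22 genes listed as parathyroid markers, 20 were measured and 19 had at least 10 reads in a thyroid library. SOX3 was at 0 in all thyroid libraries. The list summed to 15252 to 18443 normalized counts among Cold, 15216 to 20754 among AT and 15997 to 24676 in the controls, led by the broadly expressed signaling genes RGS5, GNAQ and GNA11. Of all tested genes, which passed a stricter filter that PTH, GCM2 and PAX9 failed, Control 2 held the highest value for 18.2%. It did so for 9 of the 19 listed genes. Besides PTH and GCM2 these were CASR, KL, FGFR1, GNA11 and the transcription regulators GATA3, EYA1 and PAX9, which apart from CASR and GNA11 were chosen after their values were seen. GATA3, which is needed with GCM2 for parathyroid development and is also expressed in lymphocytes, was at 690.26 normalized counts in Control 2. AT 2 and AT 3, the libraries with most DNTT reads, came next with 248.36 and 195.05, while Cold 4 had 30.3. GATA3 was thus high in Control 2, AT 2 and AT 3, and not in Cold 4.

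CALCA, the calcitonin gene, was the most abundant of the 8 genes and the most variable of the 6 that passed the filter on low counts. It ranged from 643.83 normalized counts (Cold 2) over a median of 3452.5 to 161290 (Cold 4) among Cold lambs. Among AT lambs it ranged from 172.79 (AT 6) over a median of 41606 to 244350 (AT 4). Control 1, Control 2 and Control 3 were at 29475, 26515 and 526.66. The highest library was 1414 times the lowest, and the ranges of the 3 groups overlapped. In AT 4, CALCA took 0.940% of all counts, against 0.000726% in AT 6. Per kilobase of exon, CALCA was 1.20 times TG in AT 4, 0.811 times in Cold 4 and 0.00109 to 0.00112 times in Control 3 and AT 6. TG did not show this range, as it differed 4.39-fold between the lowest and the highest library.

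**Figure D1:**
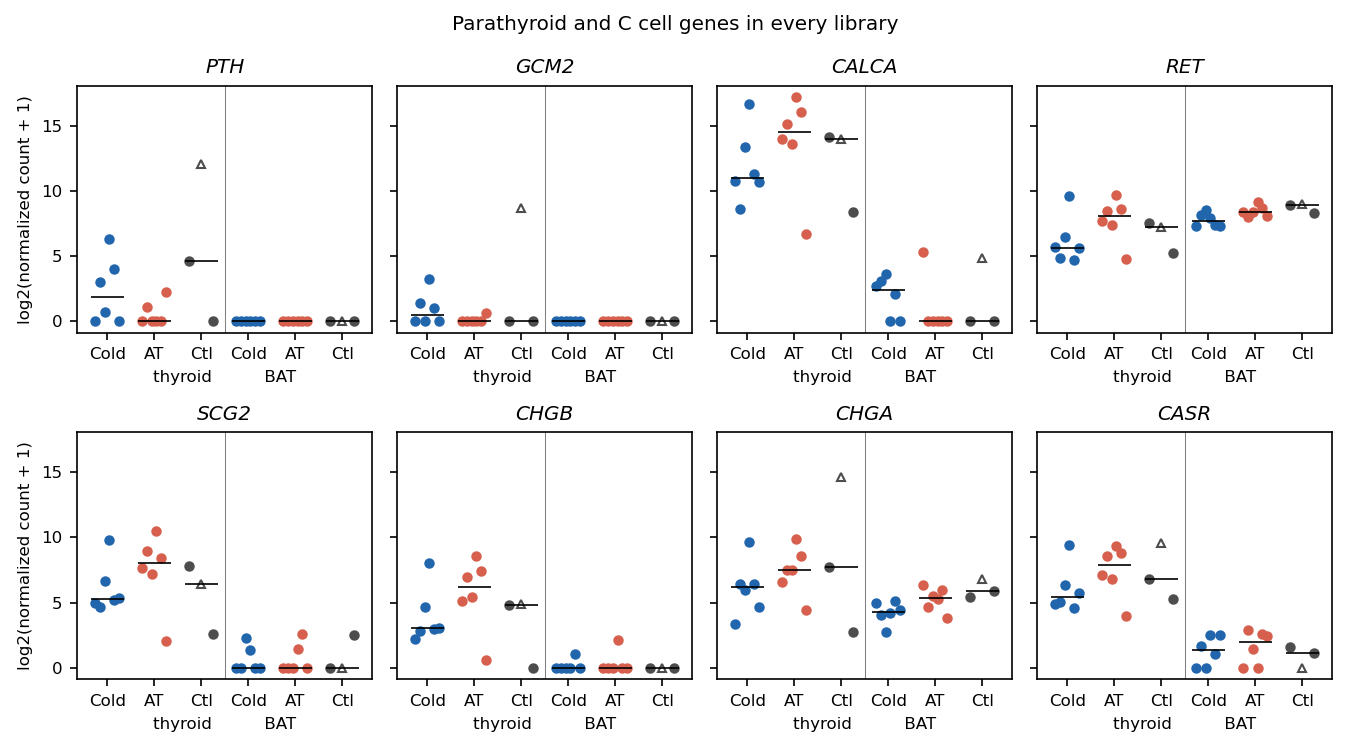
Level of each gene in every library, as log2(normalized count + 1) with size factors set over both tissues, for Cold, AT and control (Ctl) lambs in thyroid and in BAT. Points are libraries, bars are group medians and the open triangle is Control 2, which lies above all other libraries for PTH, GCM2 and CHGA (7011.5, 674.92 and 40909 normalized counts within thyroid).

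RET, the receptor tyrosine kinase for ligands of the GDNF family and a marker of C cells, followed CALCA across the libraries on a narrower scale. It ranged from 42.3 (Cold 5) over 80.5 to 1204.8 normalized counts (Cold 4) in the Cold lambs. The AT lambs lay between 44.7 (AT 6) and 1392.1 (AT 4) with a median of 454.38. Control 1, Control 2 and Control 3 were at 302.76, 246.96 and 57.4. GFRA4, a coreceptor of RET, was the gene most like RET over the 15 libraries (Pearson r = 0.97), ahead of SEZ6 and TPBG. Of the other listed ligands and coreceptors of RET, NRTN had a median of 169.71 normalized counts and GFRA2 one of 44.6.

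SCG2 and CHGB, secretogranin II and chromogranin B of the granule core, went with CALCA from library to library. SCG2 ranged from 39.0 over 62.6 to 1379 normalized counts in the Cold lambs and from 5.16 over 439.53 to 2394.6 in the AT lambs. It was at 364.16, 142.65 and 7.65 in Control 1, Control 2 and Control 3. CHGB ranged from 6.00 over 11.99 to 411.06 in the Cold lambs and from 0.860 over 138.04 to 622.95 in the AT lambs. The controls were at 45.5, 47.6 and 0. The highest Cold library was Cold 4 and the highest AT library AT 4 for both genes, and AT 6 and Control 3 were the 2 lowest of all 15.

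CHGA, chromogranin A, is stored with parathyroid hormone as well as with calcitonin. It ranged from 15.4 over 118.39 to 1243.6 normalized counts in the Cold lambs and from 34.4 over 291.5 to 1577.3 in the AT lambs. Control 1, Control 2 and Control 3 were at 357.8, 40909 and 8.93. Control 2 was 25.9 times the next library, AT 4, although it was in the middle for CALCA, SCG2, RET and CHGB, where it took ranks 6 to 9. It held 0.648 CALCA reads per CHGA read. Between 28.1 and 192 CALCA reads per CHGA read were found in 12 of the other libraries, and 4.66 and 5.03 in Cold 2 and AT 6, which both held PTH and GCM2 reads and little CALCA. The part that parathyroid tissue in these samples had in the CHGA values was not tested.

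CASR, the calcium-sensing receptor of chief cells and C cells, ranged from 37.3 over 69.3 to 1073.1 normalized counts in the Cold lambs and from 24.1 over 425.95 to 1075.6 in the AT lambs. Control 1, Control 2 and Control 3 were at 188.43, 1253.2 and 58.7. Control 2 was the highest of all libraries, though only 1.17 times AT 4. It held 21.2 CALCA reads per CASR read. The others ranged from 7.18 (AT 6) to 227 (AT 4), so that this ratio, unlike that to CHGA, did not set Control 2 apart.

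Levels between genes were compared per kilobase of exon over the 15 thyroid libraries. The median was 24906 normalized counts per kilobase for CALCA, followed by CHGA (76.5), SCG2 (64.2), RET (46.7), CASR (34.9), CHGB (16.6), PTH (2.18) and GCM2 (0). From CHGA to CHGB the ranges over the libraries overlapped throughout. In Control 2 alone, CHGA reached 20682 and PTH 15792 normalized counts per kilobase.

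Between lambs the genes varied far more than most. The SD of log2(normalized count + 1) over the 15 thyroid libraries was 3.16 for CALCA, 2.97 for CHGA, 2.73 for CHGB, 2.48 for SCG2, 1.93 for CASR and 1.72 for RET, against a median of 0.457 over all tested genes. Of the tested genes, 0.112% had a larger SD than CALCA and 1.76% a larger SD than RET. The Cold, AT and control groups held 8.35% of the variance of CALCA and at most 19.95% of that of the other 5 tested genes. Most of the spread was therefore between lambs of one group.

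The 15 libraries fell into nearly one order for these genes. AT 4 took rank 1 or 2 for CALCA, RET, SCG2, CHGB, CHGA and CASR, Cold 4 rank 2 or 3, and AT 5 rank 3 or 4, while AT 6 took ranks 13 to 15. With CALCA, Pearson's r was 0.97 for SCG2, 0.96 for CHGB, 0.94 for RET, 0.90 for CASR and 0.68 for CHGA. Without Control 2, r was 0.93 for CASR and 0.85 for CHGA. PTH had r = 0.11 with CALCA and 0.91 with GCM2, or 0.79 without Control 2. These are descriptions over libraries that share their depth and size factor between the genes, and no p was computed.

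**Figure D2:**
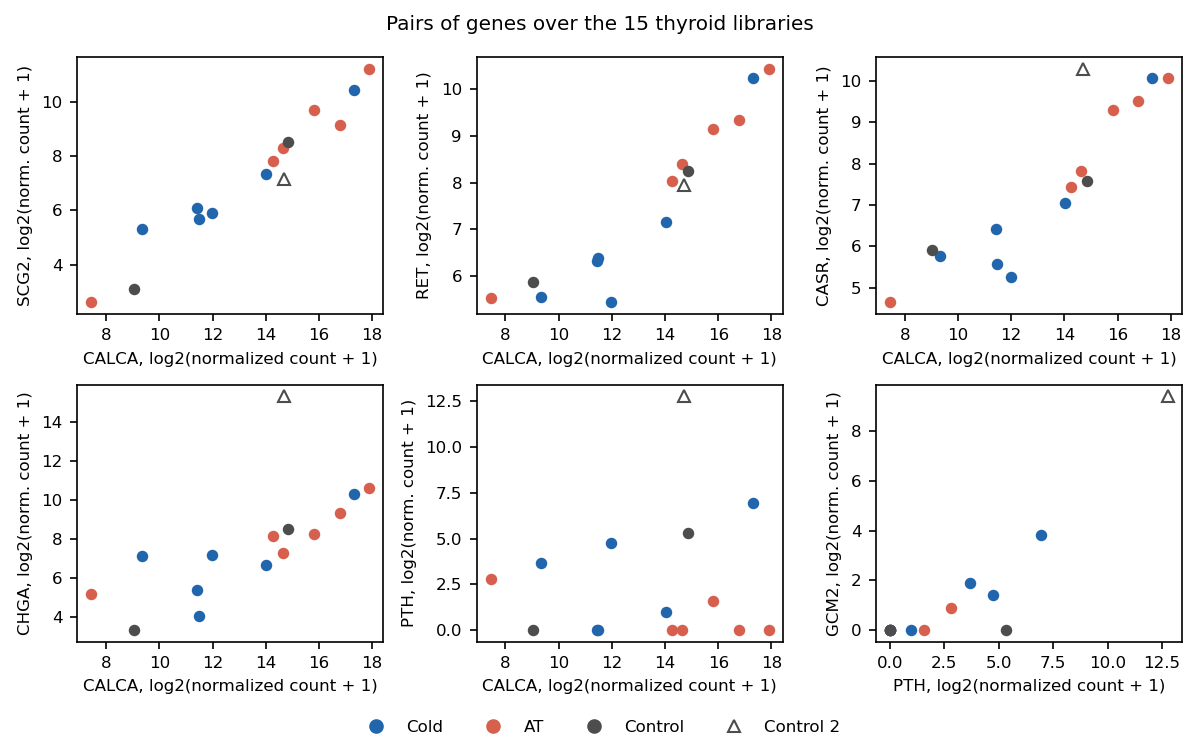
Pairs of genes in the 15 thyroid libraries, each axis as log2(normalized count + 1), colored by group, with Control 2 as an open triangle. SCG2, RET and CASR follow CALCA (r = 0.97, 0.94 and 0.90), Control 2 lies above the other libraries for CASR, CHGA and PTH, and GCM2 reads occur in 5 libraries that also hold PTH reads.

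The genes most like each of the 8 were sought among the tested genes with a symbol. CALCA was closest to ADCY1, a calcium-stimulated adenylyl cyclase (r = 0.99), CELF3, a neural splicing factor (0.99), and RESP18, a protein of neuroendocrine secretory cells (0.98). SCG2 was closest to PCSK1, the prohormone convertase that cuts prohormones in granules (0.97), and CHGB to CNTN4 (0.97), a neural adhesion protein. CASR was closest to DPYSL4 (0.98). For CHGA the closest was SMIM18 (0.94, or 0.89 without Control 2). The genes closest to PTH and GCM2, TMEM253 (0.89) and CDAN1 (0.94), were so mainly by 1 library, since r was 0.70 and 0.62 without Control 2.

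Of the 20 genes listed for C cells, 19 had at least 10 reads in a thyroid library. Of the 18 other than CALCA, 13 had r over 0.8 with CALCA, as did 112 of 16119 tested genes (0.695%). Among them were CALCB, the second CGRP gene (r = 0.97), and, chosen after its values were seen, the transcription factor FOXA2 (0.98). CALCB counts may hold reads shared with CALCA, because reads that map to several places were counted at each. The exceptions were GFRA1, CHGA, SST, GLP1R and the calcium channel gene CACNA1H, which had r of −0.08. AT 4 held the highest value for 12 of the 19 genes and Cold 4 for 3, against 2.56% and 3.43% of all tested genes. ISL1, FOXA1, FOXA2, INSM1, SST and TPH1 in AT 4, and SLC18A1 and CCKBR in Cold 4, were not among the tested genes. A gene with few reads, such as TPH1 at 0 to 15 counts, could enter the list through its highest library. These shares are therefore not like for like either.

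Of the 20 genes listed for secretory granules and prohormone processing, 18 were measured, and 10 had r over 0.8 with CALCA. SCG3 was among the 10 (0.98), whereas SCG5 (0.60) and PAM (0.25), which makes amidated peptides, were expressed in every library at 1059.9 and 1135.1 normalized counts or more. Only 2 of 19 parathyroid genes, CASR and PAX9, and 0 of 12 follicular genes had r over 0.8. Among the receptors of parathyroid hormone, calcitonin and CGRP, 0 of 7 genes did, with RAMP2, CALCRL and PTH1R at medians of 1444.2, 1009.2 and 274.57 normalized counts.

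**Figure D3:**
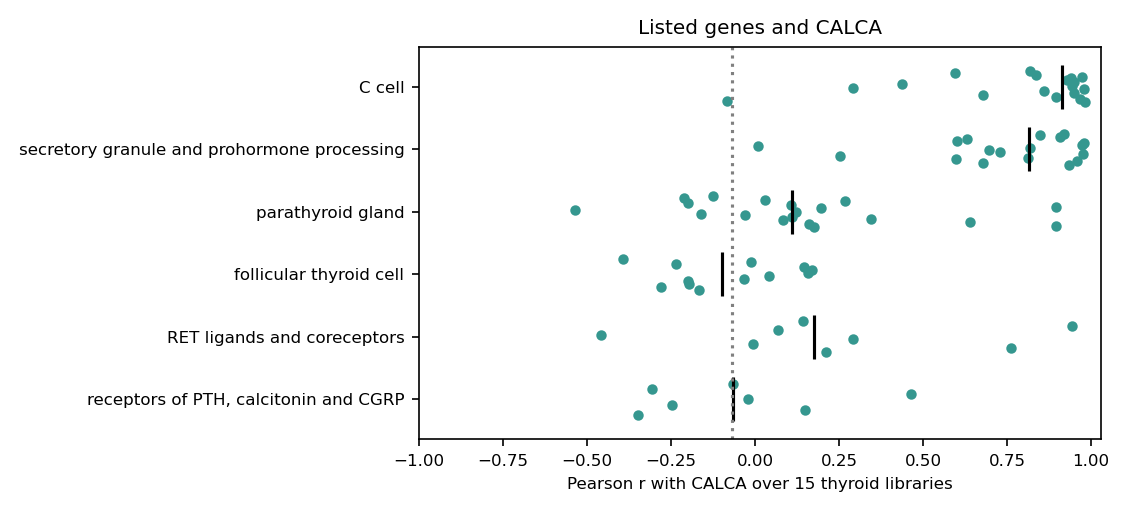
Pearson r with CALCA over 15 thyroid libraries for each listed gene with at least 10 reads in a library. Points are genes, bars are list medians and the dotted line is the median over all tested genes (−0.07). The C cell and granule genes lie at medians of 0.91 and 0.82, and the follicular genes at −0.10.

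Cold and AT lambs were compared at one age, which asks whether 2 days at 4 °C changed the genes. By edgeR's quasi-likelihood test with Benjamini-Hochberg adjustment, 0 of the 6 tested genes were called (an absolute log2FC of at least 1 and an adjusted p under 0.05), and 0% of all 16122 tested genes were. At an unadjusted p under 0.05 there were 870 genes (5.40%) and none of the 6, and DESeq2's Wald test called 2 genes, none of the 6. All 6 log2FC were below 0 (Cold lower), with a median of −1.15 against 0.00 for all genes, of which 51% were above 0. The 6 genes rose and fell together across libraries, so their shared sign is not 6 independent results. CALCA had a log2FC of −1.27 ± 1.55 (SE), with a 95% interval of −4.65 to 2.11 and an adjusted p of 0.94. RET had the narrowest interval, −3.12 to 1.08 around −1.02. Without Cold 4 the log2FC of Cold against AT was −3.83 for CALCA, −3.72 for CHGB, −3.27 for SCG2, −2.80 for RET, −2.76 for CASR and −2.51 for CHGA, and without AT 4 it was −0.44, −0.58, −0.39, −0.47, −0.57 and 0.011 in the same order, none of them called. The sizes thus rested on 1 lamb of each group. With 6 lambs against 6, the exact permutation test (2-sided) on log2(normalized count + 1) gave p = 0.338 for CALCA, 0.130 for RET, 0.212 for CASR, 0.264 for CHGA, 0.281 for CHGB and 0.368 for SCG2, unadjusted. PTH was higher in Cold lambs by 1.99 on that scale (p = 0.152, exact permutation test) and GCM2 by 1.04 (p = 0.182, exact permutation test), and both were below the filter on low counts. Fitted without that filter, both had an adjusted p of 0.785 (edgeR).

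The comparison with controls asks what changed over the 2 days indoors. With Control 1 and Control 3, 0 of 6 genes were called in Cold lambs, beside 8.04% of all genes (1.89% higher and 6.15% lower), and 0 of 6 in AT lambs, beside 7.8% (1.82% higher and 5.98% lower). The log2FC of Cold against control was 1.08 ± 2.31 for CALCA, 0.57 ± 1.41 for RET, 1.82 ± 2.11 for CHGB and 0.62 ± 1.67 for CHGA (± SE). Against control, AT lambs were at 2.35 ± 2.51 for CALCA, 1.59 ± 1.503 for RET, 3.15 ± 2.27 for CHGB and 1.43 ± 1.75 for CHGA. The smallest adjusted p of the 12 tests by edgeR was 0.34, for CHGB in AT lambs. The median of all genes was −0.28 in both comparisons, and 0.02 and 0.05 with TMM scaling. Both comparisons share the controls, Control 1 at 29475 and Control 3 at 526.66 normalized counts of CALCA. An exact permutation test of 6 lambs against 2 cannot go below p = 0.0357, and the 8 genes gave p = 0.143 or more.

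CHGA turned with the control lambs used. With all 3 controls its log2FC was −5.62 ± 1.78 (adjusted p = 0.0457, edgeR) in Cold lambs and −4.79 ± 1.73 (adjusted p = 0.0750, edgeR) in AT lambs, whereas with Control 1 and Control 3 it was above 0. On the log scale the exact permutation test with 3 controls gave p = 0.452 and 0.714. With Control 2 in place of Control 3, the log2FC was −6.21 in Cold lambs and −5.38 in AT lambs, and CHGA was called lower in both (adjusted p = 0.0254 and 0.0430, edgeR). The call therefore rested on Control 2, the library with 4571 PTH reads. In the Cold lambs the sign also turned without Cold 4, where the log2FC against control was −1.48 for CALCA, −1.22 for RET, −1.32 for SCG2, −0.57 for CHGB, −0.82 for CASR and −1.08 for CHGA, none of them called. Of 25 alternatives, the sign turned in 7 for CASR, 4 for RET, 3 for CALCA and 2 each for SCG2 and CHGB. These included all 3 controls for CASR, and the RNA integrity number as a covariate for RET and CALCA.

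**Figure D4:**
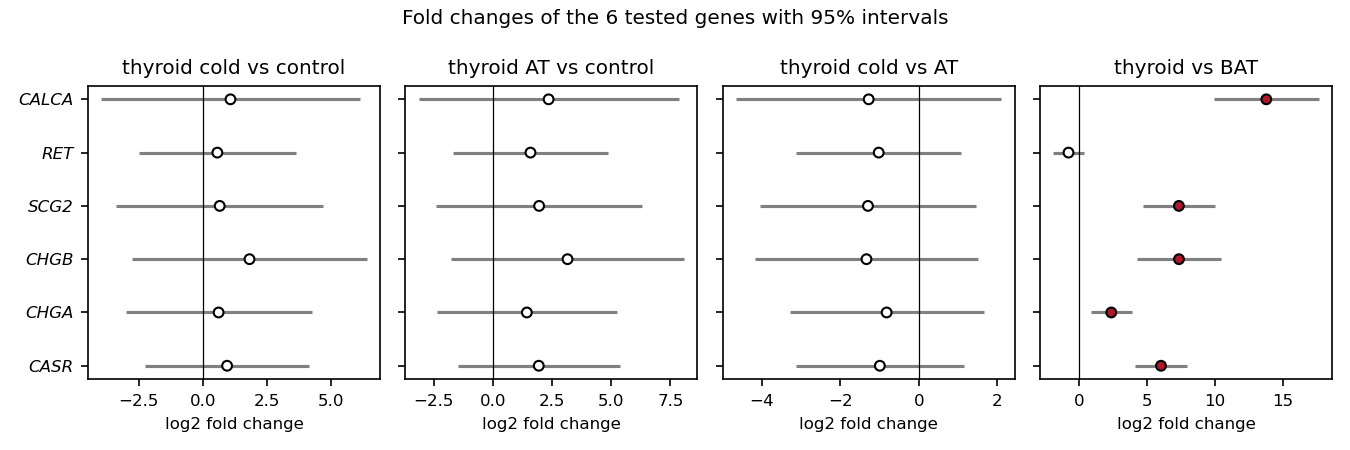
Log2 fold change of the 6 tested genes in the 3 thyroid comparisons and between tissues, from edgeR with 14 lambs. Points are estimates, lines are 95% intervals, and filled points were called. All intervals of the 3 thyroid comparisons include 0, and 5 genes were called between tissues.

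The related lists were read beside the 8.04% and 7.8% of all genes called against controls. The C cell list had 9 tested genes, of which only CACNA1H was called, with a log2FC of −1.80 ± 0.42 in Cold lambs and −1.71 ± 0.42 in AT lambs (adjusted p = 0.0117 and 0.0131, edgeR). It encodes a T-type calcium channel. Of 17 tested granule genes only RAB3B, a small GTPase of secretory vesicles, was called, at 1.42 ± 0.35 and 1.10 ± 0.35 (adjusted p = 0.0152 and 0.0369, edgeR). Neither went with CALCA across libraries (r = −0.08 and 0.01). Of the 15 tested parathyroid genes, 5 receptor genes and 4 genes of RET ligands and coreceptors, 0 were called. Among the follicular genes, the iodide transporter SLC5A5 was called lower in both comparisons, and TG lower in AT lambs (−1.17 ± 0.23, adjusted p = 0.0044, edgeR). Between Cold and AT lambs 0 genes of any list were called. The median log2FC was 0.66 for the C cell list and 0.64 for the granule list in Cold lambs, and 1.98 and 1.43 in AT lambs.

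Thyroid and BAT of the same lambs were compared to set the background. Of the 6 tested genes, 5 were called higher in thyroid, beside 39.2% of all 17021 genes called and 14.2% called higher. In BAT, CASR had 0 to 5 counts, SCG2 0 to 4 and CHGB 0 to 2 per library. CALCA had no read in 9 of the 15 BAT libraries and 2 to 25 in the other 6, with the 25 in AT 1, the BAT library that also held most TG (1160 counts). CHGA was the exception among the 5 genes called higher, with 3 to 51 counts in every BAT library. RET, the other tested gene, had 56 to 329.

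The log2FC of thyroid over BAT was 13.8 ± 1.86 for CALCA, 7.35 ± 1.28 for SCG2 and 6.03 ± 0.93 for CASR (adjusted p = 8.1e-07, 1.8e-05 and 3.0e-06, edgeR). CALCA, SCG2 and CASR were higher in thyroid in 15 of 15 lambs (exact sign-flip permutation test over pairs, p = 6.1e-05, the smallest that 15 pairs can give). CHGB was higher in 14 lambs and equal in 1 (p = 0.00012, same exact permutation test). With 1924 counts in thyroid and 3 in BAT, its CPM ratio was 781, with a counting interval of 267 to 3790. PTH, with no read in BAT, was at least 1944-fold higher over all lambs and at least 88.1-fold higher without Control 2, each against 3 counts over the group. GCM2 was at least 187-fold higher, and at least 8.05-fold higher without Control 2, by the same floor. Of the lists, 8 of 13 tested C cell genes and 14 of 18 granule genes were called higher in thyroid, with 2 called lower in each. The parathyroid list had 3 of 15 higher and 5 lower, the RET ligands and coreceptors 2 of 6 higher and 4 lower, and the receptors 0 of 6 higher and 5 lower.

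CHGA had a log2FC of 2.37 ± 0.73 over BAT (adjusted p = 0.0059, edgeR) and was higher in thyroid in 13 of 15 lambs (exact permutation test over pairs, p = 0.0096). With the lamb as a block it was at 1.30 ± 0.72 and was not called (adjusted p = 0.12, edgeR). RET differed from the other 5 tested genes in not being called higher in thyroid. It was at 42.3 to 1392.1 normalized counts in thyroid and at 96.6 to 333.21 in BAT, each within its own tissue's scaling, and the log2FC was −0.79 ± 0.54 (adjusted p = 0.20, edgeR). Scaled by the reference genes over both tissues, RET was lower in thyroid in 12 of 15 lambs (exact permutation test over pairs, p = 0.0054). With the lamb as a block it was called lower (−1.495 ± 0.44, adjusted p = 0.0067, edgeR). The summed RET counts of all lambs, divided by the summed library totals, were 2.32 times higher in thyroid, a ratio in which the lambs with most RET reads weigh most.

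Markers of other cells were read beside these values. The sympathetic and chromaffin markers TH and DBH, whose cells also hold CHGA and CHGB, were at 13.9 to 59.8 and 0.857 to 37.8 normalized counts in thyroid. The whole list of 14 such genes summed to 392.11 to 438.59 among Cold, 355.45 to 516.5 among AT lambs and 373.68 to 504.98 in the controls. Adrenal cortex genes summed to 34.9 to 116.5 over all groups. The 14 thymus and lymphocyte genes summed to 610.65 to 1081.6 among Cold, 486.55 to 2926.9 among AT lambs and 447.9 to 694.99 in the controls. The adipocyte marker ADIPOQ ranged from 139.73 to 4631.7, with its highest value in AT 6. Skeletal muscle genes summed to 337.22 to 4137.1 among Cold, to 400.32 to 3494800 among AT lambs and to 311.15 to 345570 in the controls. Adipocyte genes summed to 1930.5 to 13438 over all groups, Schwann cell genes to 1058.9 to 2018.6, and genes of airway and cartilage to 79.3 to 615.64. Against controls, the monoamine transporter SLC18A2 was called lower and the lymphocyte gene CD2 higher in Cold and in AT lambs. S100B, of the Schwann cell list, was called lower in Cold lambs, and the adipocyte gene UCP1 lower in AT lambs. The part of these cells in the values of the 8 genes was not tested.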

How the data were processed

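Thyroid and BAT of 15 lambs were sequenced (30 libraries, BGISEQ-500, paired ends). Per the labels and the study's methods, the authors checked reads with FastQC 0.11.9, trimmed them with Trimmomatic 0.39, mapped them with STAR 2.7.7a to Oar_rambouillet_v1.0 and counted reads per gene with featureCounts (Subread 2.0.0), reads with several positions included. The strand setting is not given in the sources used here. The deposited values are raw counts per gene. Groups came from the labels. The control that the study left out was found as the one whose counts were not proportional to the study's normalized counts.

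Counts were scaled by 3 reference genes (ACTB, RPL19 and HUWE1), and genes with at least 10 reads in 10 libraries were kept, which removed PTH and GCM2. edgeR 4.0.16 (quasi-likelihood, R 4.3.3) was fitted to 14 thyroid libraries in 3 groups, and to 28 libraries of both tissues for the mean of the 3 group differences. Calls needed an absolute log2FC of at least 1 and a Benjamini-Hochberg adjusted p under 0.05. Exact permutation tests used log2(normalized count + 1). The scripts were tested on simulated data. Intervals and floors cover counting error only, and p-values measure the spread between lambs.

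Thyroid and BAT share lambs, as the sample names show. Deviations from group means correlated between the tissues of a lamb from 0.0308 to 0.326 (median 0.221), with 12 lambs over 0.1. Alternatives were TMM and DESeq2 1.42.0 scaling, DESeq2's Wald test, other filters, controls, covariates and pseudocounts, the lamb as a block, and leaving out each lamb. The members and the 13 gene lists were chosen with earlier results of these data known. Named genes were the 8 members, listed genes that were called or define a cell type, at most 3 more per list by highest mean thyroid level, and the 3 genes most like each member. Listed genes without a row were not analysed here. Some listed genes that met this rule are not reported here.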

Additional observations from a re-analysis of the deposited data

Results flagged for a closer look

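On the scale of normalized counts, Cold 4 stood far from the other 5 Cold lambs for all 8 genes in thyroid (Dixon's test at the 95% level). The test assumes normally distributed values. Counts with this spread are skewed, and no such test was run on the log scale. Its normalized counts were 161290 for CALCA, where the others reached 16674, and 1204.8 for RET, 1379 for SCG2, 411.06 for CHGB, 1243.6 for CHGA and 1073.1 for CASR. PTH was at 121.23 and GCM2 at 13.26, where the others reached 25.7 and 2.72. AT 4 stood apart in its group for SCG2, at 2394.6 normalized counts. In BAT, CALCA was at 23.536 normalized counts in AT 1 and at 0 in the other AT lambs. In all, 10 of 19 groups tested were flagged, and 8 of the 10 came from 1 library, so they are not independent. Chance flags about 1 in 20 only where values are normally distributed, so that rate cannot be set against these flags.

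Control 2, outside the 14 libraries of the tests, had 7011.5 normalized counts of PTH, 674.92 of GCM2 and 40909 of CHGA. The other 2 controls were at 39.168 and 0 for PTH, at 0 for GCM2, and at 357.8 and 8.93 for CHGA.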

How the results depend on the processing

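Against controls, 1296 genes in Cold and 1258 in AT lambs were called. TMM scaling gave 792 and 744, DESeq2 scaling 789 and 739, the adjusted p alone 3110 and 3382, and only the 2 groups compared gave 713 in AT lambs. TMM turned the split in Cold lambs from 305 higher and 991 lower to 456 and 336, and in AT lambs from 294 and 964 to 474 and 270. Leaving out 1 lamb gave 1028 to 1728 and 1015 to 2041, the last without AT 3. Cold against AT gave 2 with DESeq2 and 0 to 0 when leaving out 1 lamb. Thyroid against BAT gave 12085 by the adjusted p alone and 6477 to 6748 when leaving out 1 lamb, of 6671.

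Of the 6 tested genes only CHGA was called between groups, in 7 of 450 fits over genes and alternatives (1 gene in place of 0, and 0 to 1 when leaving out 1 lamb). In Cold lambs against all 3 controls CHGA was at −5.62 and CASR at −1.07, with TMM added −5.72 and −1.14 (adjusted p = 0.0481 for CHGA, edgeR), and without the libraries that stand apart −6.18 and −1.45 (adjusted p = 0.0186 for CHGA, edgeR). In AT lambs these were −4.79 and −0.069, −4.85 and −0.072, and −5.22 and −0.27 (CHGA called without the libraries that stand apart, adjusted p = 0.0486, edgeR). With the RNA integrity number as a covariate, RET was at −0.23 and CALCA at −0.11 in Cold lambs. Without the 2 libraries with most PTH, chosen after seeing the data, the Cold values were −0.82 for CASR, −1.08 for CHGA, −0.57 for CHGB, −1.32 for SCG2, −1.22 for RET and −1.48 for CALCA.

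Leaving out 1 lamb, Cold against control ran from −1.60 to 1.18 for CASR, −6.21 to 0.87 for CHGA, −0.57 to 2.07 for CHGB, −1.32 to 1.98 for SCG2, −1.22 to 0.81 for RET and −1.48 to 1.35 for CALCA. AT against control ran from −0.61 to 2.18 for CASR and −5.38 to 1.68 for CHGA, and Cold against AT from −2.51 to 0.011 for CHGA. Over all alternatives AT against control ran from 0.90 to 2.72 for CALCA, 0.58 to 2.0001 for RET, 0.99 to 3.49 for SCG2 and 2.04 to 3.41 for CHGB. With the lamb as a replicate block, CHGA over BAT fell to 1.30 and RET to −1.50, and no other call of the 6 genes changed. RET over BAT ran from −1.38 to −0.69 when leaving out 1 lamb, and was called without Cold 4.

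On the log scale with 3 controls, Cold minus control was −3.31 for PTH, −1.94 for GCM2, −2.27 for CHGA and −0.27 for CALCA, and AT minus control −2.98 for GCM2 and −0.92 for CHGA. With a pseudocount of 5, PTH was at −0.025 in Cold lambs. With TMM, CASR was at 0.23 and RET at 0.062. The cause of these changes was not tested.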
